A study of Mus musculus with 3 samples.

Results

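Angiopoietin-like proteins and the lipase that they restrain were followed through an RNA immunoprecipitation from mouse white fat. The members are the 7 genes Angptl1, Angptl2, Angptl4, Angptl6, Lpl, Lmf1 and Gpihbp1, taken by symbol from a table of 39179 genes. The choice of members was made with earlier results of these data known. The tested libraries, Flag-IP 1 and Flag-IP 2, hold RNA that came down with an anti-Flag M2 monoclonal antibody, and the library they were set against, IgG-IP, holds RNA that came down with IgG. All 3 libraries came from white fat of C57BL/6 mice 16 weeks of age that carry the Flag-FTO transgene and were fasted overnight, so the IgG-IP library is a control for the antibody and not for the transgene. The promoter that drives the transgene is not given in the labels. Nor is whether each library is 1 animal, a pool or a repeat from the same lysate, and p-values therefore rest on a spread that may be technical. That spread comes from Flag-IP 1 and Flag-IP 2 alone, since IgG-IP is 1 library, and was estimated across genes. FTO is an enzyme that takes methyl groups off adenosines in RNA, and the comparison asks which RNAs came down with it above the IgG background.

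Lipoprotein lipase, encoded by Lpl, splits the triglycerides of circulating lipoproteins so that fat and muscle can take up the fatty acids. The enzyme is folded in the endoplasmic reticulum with the help of lipase maturation factor 1 (Lmf1), leaves the adipocyte, and is carried across capillary endothelium by the anchor protein GPIHBP1 (Gpihbp1). Angiopoietin-like protein 4 (Angptl4) is a secreted inhibitor of the lipase that adipose tissue makes in fasting. Angptl1, Angptl2 and Angptl6 encode secreted relatives with the same build, a coiled coil followed by a fibrinogen-like domain, which are known for roles in vessels, inflammation and metabolism rather than for inhibition of the lipase.

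Adenosines of messenger RNA are methylated within a short consensus of which GGACT, in DNA letters, is a frequent form, and FTO is known to act on methylated adenosines. The windows below are shown because they are the stretches of the members' own messages that carry that form. For each member the window is the first GGACT of the coding sequence with 10 bases on either side inside the same coding exon, read 5' to 3' on the transcript strand from the GENCODE M21 transcripts of GRCm38, with the motif in capitals.
Angptl4: ggccgccccgGGACTgccaggaact
Angptl2: ctggtggcttGGACTgctggccacg
Angptl1: cctgggggttGGACTgttattcaga
Angptl6: ggtggaggctGGACTgtcatccaga
Lpl: cacttttctgGGACTgaggatggca
Lmf1: tgtggttgttGGACTggtcagacat
These windows lie at chr17:33778461-33778485 (minus strand, exon 4) for Angptl4, chr2:33228239-33228263 (plus strand, exon 2) for Angptl2 and chr1:156857202-156857226 (plus strand, exon 3) for Angptl1. Those of Angptl6, Lpl and Lmf1 lie at chr9:20875564-20875588 (minus strand, exon 4), chr8:68899440-68899464 (plus strand, exon 7) and chr17:25585690-25585714 (plus strand, exon 2).

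The motif was searched on the transcript strand of the longest protein-coding transcript of each gene. Angptl4 held 5 copies over its whole transcript, 4 of them in the coding sequence, and Lmf1 held 5, all of them coding. Angptl1 held 5 (3 coding), Angptl2 held 4 (3 coding), and Angptl6 held 3 (2 coding). Lpl held 3, all coding, on a transcript of 4115 bases, and Gpihbp1 held 1, which is not coding, so no window is given for it. Per kilobase of transcript the density was highest in Lmf1 (2.50), followed by Angptl6 (1.90), Angptl1 (1.89), Angptl4 (1.51), Angptl2 (1.20), Lpl (0.729) and Gpihbp1 (0.605). Of 21951 protein-coding transcripts taken the same way, 87.6% held the motif at least once, with a median of 1.01 per kilobase and quartiles of 0.562 and 1.505. Lmf1, Angptl6, Angptl1 and Angptl4 were above the upper quartile, Angptl2 lay between the median and the upper quartile, and Lpl and Gpihbp1 lay between the lower quartile and the median. A match says nothing on whether that adenosine is methylated or bound.

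Flag-IP 1 held 98227791 counts and Flag-IP 2 held 95824218, against 74176962 in IgG-IP. Of these, 97.6% in each Flag-IP library, against 97.0% in IgG-IP, fell on 28 genes, leaving 2369795 and 2345893, against 2246445, for all others. Each white adipocyte marker of a list of 10 had counts in every library. Their summed normalized count was 2439 and 1944 in the Flag-IP libraries, against 527 in the IgG-IP library. Most of the Flag-IP sums was Aqp7, the glycerol channel of fat cells, with 2081 and 1615, against 185. Of 9 tested, 2 were higher, Aqp7 and Plin1 (36.6 and 58.4, against 11.3), and 0 were lower. Cidec (126 and 92.1, against 143), Pparg (73.2 and 116, against 139) and Cfd (6.46 and 3.96, against 6.59) were below IgG-IP in both Flag-IP libraries. Markers of skeletal muscle summed to 148 and 84.2, against 45.2, and 2 of 4 tested, Ckm and Tnnt3, were higher. Ckm passed the filter on low counts through Flag-IP alone, the group where it is high. Markers of liver summed to 17.2 and 23.8, against 33.0. The sums were 216 and 159, against 220, for macrophages and 309 and 258, against 215, for fibroblasts. What part the marker differences had in the members' values was not tested. Over all genes, edgeR's quasi-likelihood test called 981 of 17587 tested genes higher in Flag-IP and 1015 lower at a Benjamini-Hochberg adjusted p under 0.05, with 342 higher and 3008 lower when libraries were scaled to total counts. Normalized counts are raw counts brought to a common effective library size with TMM factors.

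The level of Lpl stood apart from that of every other member. Lpl (ENSMUSG00000015568, GRCm38 chr8:68880491-68907448, plus strand) had 3108 and 1996 raw counts in the Flag-IP libraries, against 2666 in the IgG-IP library. It ranked 76 by mean raw count among 21303 protein-coding genes and made up 94.7% and 92.7% of the members' summed counts in the Flag-IP libraries, against 96.3% in the IgG-IP library. The next member, Lmf1 (ENSMUSG00000002279, chr17:25579085-25662826, plus strand), had 123 and 81 raw counts in Flag-IP, against 68 in IgG-IP. The other 5 members had at most 30 counts in any library. In a lysate of whole tissue, fewer cells of a type and less RNA per cell cannot be told apart in these levels.

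Raw counts depend on length, and in these libraries they followed the whole span of a gene, introns included, more closely than its exons. Across 20442 protein-coding genes with counts, which share the same 3 libraries and are not independent replicates, Spearman's rho of the mean count was 0.91 with gene span and 0.62 with exonic length. How reads were assigned to genes is not given in the sources used here. Protein-coding genes had a median of 0.803 mean counts per kilobase of span, with quartiles of 0.611 and 1.04. The same scale gave a median of 0.119 for 1034 olfactory receptor genes and 0.365 for 286 vomeronasal receptor genes, families known for expression in sensory epithelia, which were picked for comparison after the levels had been seen.

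On that scale 6 of the 7 members lay in the range of ordinary genes and Lpl lay far above it. Lpl had 115 and 74.0 counts per kilobase of span in the Flag-IP libraries, against 98.9 in the IgG-IP library, and its mean of 96.1 was higher than that of 99.7% of protein-coding genes. Gpihbp1 (1.28), Angptl6 (1.18), Lmf1 (1.08), Angptl4 (0.907), Angptl2 (0.748) and Angptl1 (0.548) followed in the mean over the 3 libraries. Angptl4 thereby stood at percentile 63.5 of protein-coding genes per kilobase of span. Alb, the albumin gene of the liver, was close to it at 0.849 and percentile 56.3. Of the other liver markers, Serpina1a (0.0668), Ttr (0.442) and Fgb (0.549) were below Angptl4, and Apoa2 (1.26) was above it. White adipocyte markers ran from 0.857 (Pparg) to 83.2 (Aqp7) with a median of 2.22. Among them Adipoq stood at 1.02, Cfd at 3.14 and Fabp4 at 4.90, all far below Lpl. How far counts per kilobase follow the abundance of a message in fat was not tested. Capillary endothelial markers had a median of 0.847, and liver markers 0.549. Per kilobase of exon the order of the members was Lpl (247), Lmf1 (6.67), Angptl6 (4.42), Angptl1 (4.34), Angptl2 (3.76), Angptl4 (2.07) and Gpihbp1 (1.44), against a median of 4.20 over protein-coding genes. Among the 6 members below Lpl the order changed with the length used, and neighbours in it overlapped over the 3 libraries. Per kilobase of span, for instance, Angptl4 had 0.495 and 1.48 counts in Flag-IP, against 0.742 in IgG-IP, and Angptl2 had 0.916 and 0.948, against 0.379.

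**Figure D1:**
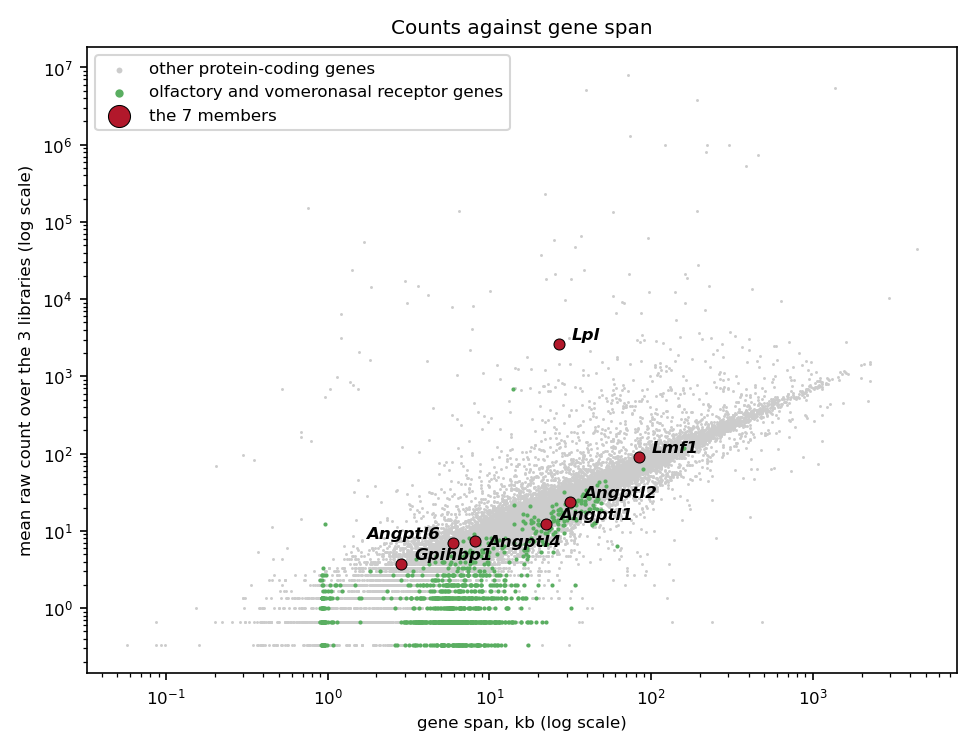
Mean raw count over the 3 libraries against gene span in kilobases, both on log axes, for protein-coding genes with counts (grey), olfactory and vomeronasal receptor genes (green) and the 7 members (red). Angptl1, Angptl2, Angptl4, Angptl6, Lmf1 and Gpihbp1 lie in the diagonal band of other genes at 0.548 to 1.28 counts per kilobase, and Lpl lies above it at 96.1.

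No member passed the test between Flag-IP and IgG-IP. Of the 6 that passed the filter on low counts 0 were called, against 11.3% of all genes tested in either direction. DESeq2 gave an adjusted p for 1 of them, Lpl, and did not call it. The others had no such value and could not be called by DESeq2. At an unadjusted p under 0.05 the edgeR test took 2 members, Angptl2 and Lmf1, against 24.7% of all genes. The median log2 fold change of the 6 tested members was 0.62, beside 0.03 over all genes tested, and all 6 estimates were above 0. With total-count scaling, which moved the median of all genes to -0.48, those of Lpl (-0.45) and Angptl1 (-0.50) were below 0. Angptl4 and Angptl6 passed the filter through their count in Flag-IP 2 alone, so the median and the signs of the members that passed support nothing by themselves. Gpihbp1 did not pass the filter.

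**Figure D2:**
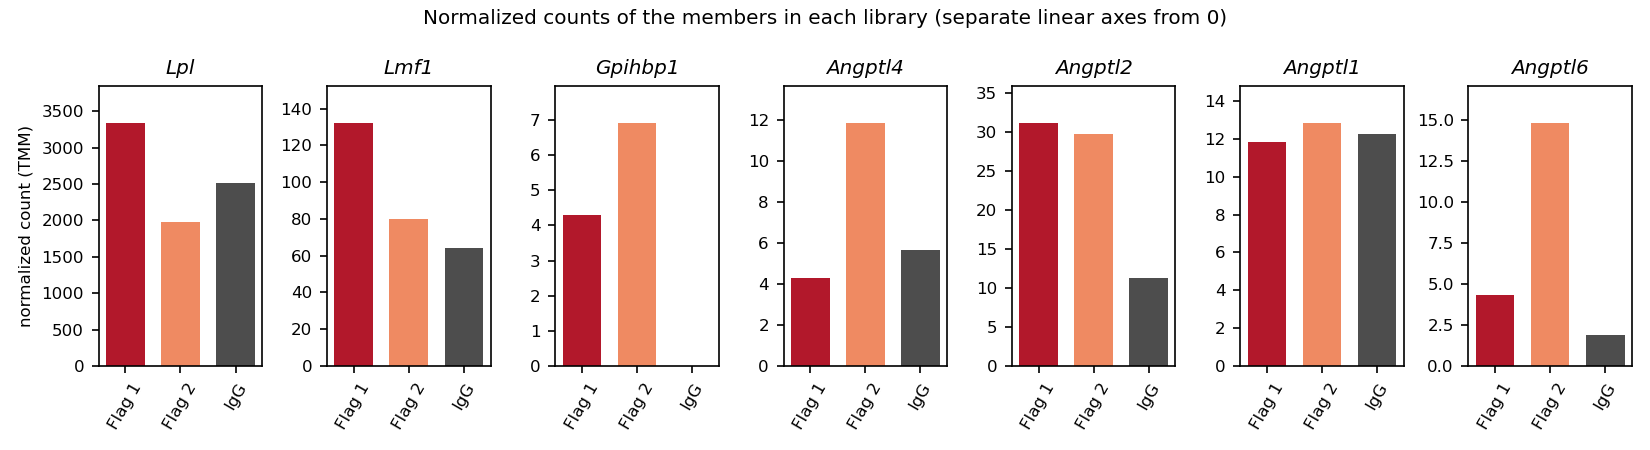
TMM-normalized counts (vertical axes, linear from 0 and separate for each gene) of the 7 members, with 1 bar for each Flag-IP library and 1 for IgG-IP. Angptl2 reaches 31.2 and 29.7 in the Flag-IP libraries, against 11.3 in IgG-IP, while in Lpl, Angptl4 and Angptl1 the IgG-IP bar lies between the Flag-IP bars.

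For the lipase itself the libraries disagreed with each other more than the groups did. Lpl had 3347 and 1977 normalized counts in the Flag-IP libraries, against 2511 in the IgG-IP library, so with TMM scaling the IgG-IP value lay between them. The ratio to IgG-IP was 1.33 in Flag-IP 1 (exact 95% interval 1.27 to 1.40) and 0.787 in Flag-IP 2 (0.742 to 0.834). These intervals, like all others for ratios of libraries, are Clopper-Pearson intervals of the share of counts, cover counting error only and compare libraries, not conditions. Flag-IP 1 was 1.69 times as high as Flag-IP 2 (1.60 to 1.79), a gap that counting error does not cover. With total-count scaling both Flag-IP libraries lay below IgG-IP, at ratios of 0.880 (0.836 to 0.927) in Flag-IP 1 and 0.580 (0.547 to 0.614) in Flag-IP 2. The log2 fold change of Flag-IP over IgG-IP was 0.08 ± 0.23 (SE, n = 2 and 1, edgeR adjusted p = 0.864). It was -0.35 without Flag-IP 1 and 0.41 without Flag-IP 2, and 0.53 with a trend on GC taken out of each library. The values without a library carry no test, and the one with the GC trend removed did not pass.

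Lmf1, the chaperone that the lipase needs to fold, was above IgG-IP in both Flag-IP libraries with TMM scaling, but unequally. It had 132 and 80.2 normalized counts in Flag-IP, against 64.1 in IgG-IP. The ratio to IgG-IP was 2.07 (1.53 to 2.82) in Flag-IP 1 and 1.25 (0.896 to 1.75) in Flag-IP 2, so the interval of Flag-IP 2 includes equality. With total-count scaling Flag-IP 1 stood at a ratio of 1.37 and Flag-IP 2 at 0.922, on either side of IgG-IP. The log2 fold change of Lmf1 was then 0.19. Its log2 fold change was 0.73 ± 0.31 (SE, edgeR adjusted p = 0.107). The transcript of Lmf1 has a GC content of 58.4%, in the highest of 10 equal groups by GC of 9084 protein-coding genes averaging 20 counts or more, and the median log2 fold change over the 909 genes of that group was 0.76. With a trend on GC taken out of each library the value for Lmf1 was 0.04, while with one on exonic length taken out it was 0.93 and passed (edgeR adjusted p = 0.0280). It was 0.32 without Flag-IP 1 and 1.05 without Flag-IP 2, values that carry no test.

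Gpihbp1, the endothelial anchor of the lipase (ENSMUSG00000022579, chr15:75596628-75599481, plus strand), had 4 and 7 raw counts in the Flag-IP libraries, against 0 in the IgG-IP library. It had 4.31 and 6.93 normalized counts in Flag-IP, and the count of 0 in IgG-IP allows up to 2.83, the normalized value of 3 counts. The lower limit of the exact interval of the ratio to IgG-IP was 0.755 in Flag-IP 1, which includes equality, and 1.52 in Flag-IP 2. Of 221 tested genes with a mean within 1.5 times of its own, edgeR called 0, but those genes passed the filter and Gpihbp1 did not. In the fit with no filter its log2 fold change was 5.51 ± 2.80 (SE, edgeR adjusted p = 0.307). Markers of capillary endothelium, the cell type that makes GPIHBP1, summed to 426 and 488 normalized counts in Flag-IP, against 388 in IgG-IP, and 0 of 6 tested passed.

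Angptl4, the inhibitor made in fasted fat, had 4 and 12 raw counts in the Flag-IP libraries, against 6 in the IgG-IP library (ENSMUSG00000002289, chr17:33773750-33781830, minus strand). The Flag-IP libraries lay on either side of IgG-IP, at 4.31 and 11.9 normalized counts, against 5.65. The ratio to IgG-IP was 0.762 in Flag-IP 1 (0.158 to 3.21) and 2.10 in Flag-IP 2 (0.730 to 6.83), and both intervals include equality. Its log2 fold change was 0.52 ± 1.27 (SE, edgeR adjusted p = 0.847). Of 3529 tested genes with a mean count within 1.5 times of that of Angptl4, 59 (1.67%) were called, and the smallest increase among them was 3.87 on the log2 scale. A change of the size estimated for Angptl4 was thus not detectable at this depth.

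In the authors' deposited table of 31 lipid genes Angptl4 is the only member. The authors' deposited table gives it a Flag count of 12, an IgG count of 6 and a ratio of 2. Those counts are the ones of Flag-IP 2 and IgG-IP: for all 31 genes the table's Flag count equals the Flag-IP 2 count, while 2 of them also equal the Flag-IP 1 count. The same unscaled division with Flag-IP 1 gave 0.667, and with the mean of both Flag-IP libraries 1.33. Among the 25 genes of the authors' deposited table with an IgG count above 0, ratios ran from 1.75 to 5 with a median of 2.33, and 16 of them were above that of Angptl4.

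Angptl2, a relative that fat tissue secretes, was the member whose Flag-IP libraries matched each other best while both lay above IgG-IP. It had 29 and 30 raw counts in Flag-IP, against 12 in IgG-IP (ENSMUSG00000004105, chr2:33216069-33247717, plus strand), which gave 31.2 and 29.7 normalized counts, against 11.3. The ratio to IgG-IP was 2.76 (1.37 to 5.94) in Flag-IP 1 and 2.63 (1.31 to 5.64) in Flag-IP 2, and neither interval includes equality. With total-count scaling both do, at 1.82 (0.903 to 3.93) in Flag-IP 1 and 1.94 (0.962 to 4.15) in Flag-IP 2, and the log2 fold change was 0.90. Its log2 fold change of 1.42 ± 0.58 (SE, edgeR adjusted p = 0.0956) did not pass the threshold. Of 5075 tested genes with a mean within 1.5 times of its own, 397 (7.82%) were called, and the smallest increase called was 1.35. With a trend on GC taken out of each library the log2 fold change of Angptl2 was 0.99.

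Angptl1 had nearly the same count in every library, and the count of Angptl6 in Flag-IP 2 stood above its other counts. Angptl1 (ENSMUSG00000033544, chr1:156838562-156861078, plus strand) had 11 and 13 raw counts in Flag-IP, against 13 in IgG-IP, and a log2 fold change of 0.01 ± 0.78 (SE, edgeR adjusted p = 0.993). Angptl6 (ENSMUSG00000038742, chr9:20873808-20879727, minus strand), known as a liver-derived factor in energy metabolism, had 4 and 15 raw counts in Flag-IP, against 2 in IgG-IP. Its ratio to IgG-IP was 2.29 (0.328 to 25.3) in Flag-IP 1 and 7.88 (1.83 to 71.1) in Flag-IP 2. Its log2 fold change of 2.28 ± 1.55 (SE, edgeR adjusted p = 0.377) was the largest among the tested members and had the largest error. It was 1.14 without Flag-IP 2 and stood at 2.90 without Flag-IP 1. The transcript of Angptl6 had the highest GC content of the members, 63.1%, and with a trend on GC removed the log2 fold change was 1.47.

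**Figure D3:**
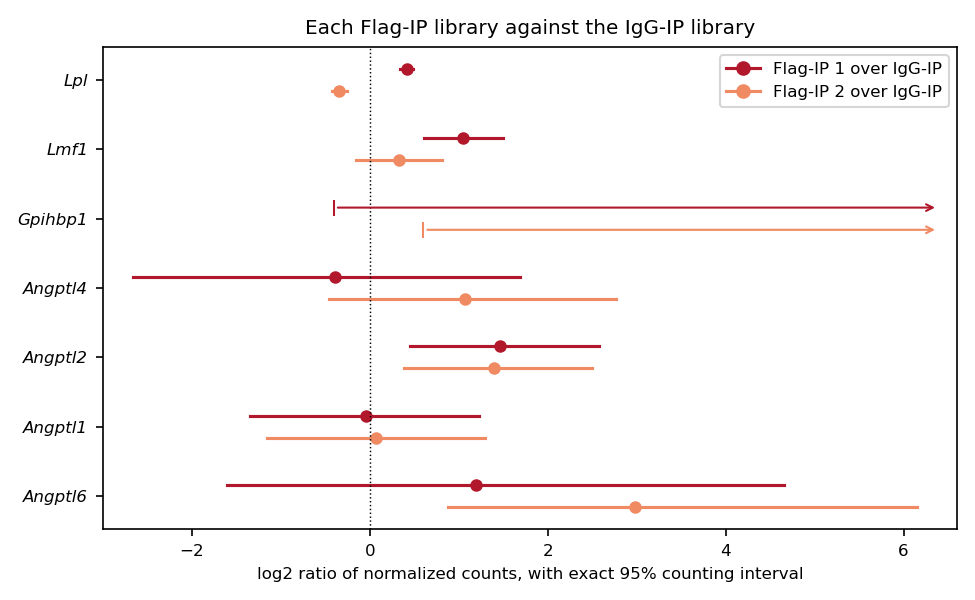
Log2 ratio of normalized counts of Flag-IP 1 (dark red) and Flag-IP 2 (orange) over IgG-IP for each member, with exact 95% counting intervals as lines. Arrows start at the lower limits for Gpihbp1, whose count of 0 in IgG-IP leaves no upper limit. With TMM scaling, as drawn, both intervals lie above 0 for Angptl2 alone, and the 2 intervals of Lpl lie on opposite sides of 0, neither of which holds with total-count scaling.

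Of the 4 angiopoietin-like members, Angptl1 and Angptl2 lie wholly inside another counted gene and Angptl6 overlaps a neighbour. Angptl1 lies on the strand opposite to Ralgps2, wholly within its span of 135 kb and with no Ralgps2 exon inside Angptl1, and Angptl2 lies in the same way within the 238 kb of Ralgps1. Ralgps1 and Ralgps2 encode exchange factors for Ral GTPases. Angptl6 overlaps the end of A230050P20Rik by 500 bases, exons of both included. Of the relatives outside the members, Angptl7 lies within Mtor and Angptl8, listed as Gm6484, within Dock6, while no counted gene overlaps Angptl4, Lpl, Lmf1 or Gpihbp1. Overlapping genes on opposite strands could have nearly equal counts, as in a pair chosen after its values were seen. Filip1l, within Cmss1 on the other strand, had 1355290 and 1000078 counts in Flag-IP, against 603206 in IgG-IP, and Cmss1 had 1355346 and 1000152, against 603281. Nearly equal counts were not limited to overlapping genes. Itsn1 had 180199 and 160356 counts in Flag-IP, against 77062 in IgG-IP. Its neighbour Atp5o, which does not overlap it in GENCODE M21, had 180251 and 160403, against 77117. Both pairs had counts far above those of Angptl1, Angptl2 and Angptl6, and do not show how those members were counted.

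In the mean over the 3 libraries, Ralgps1 and Ralgps2 had somewhat higher counts per kilobase of span than the genes within them. Protein-coding genes had a median of 0.803 on this scale, with quartiles of 0.611 and 1.04, so values this near are common. By library, Angptl2 ran from 0.379 in IgG-IP to 0.948 in Flag-IP 2. Ralgps1 had 257 and 222 raw counts in Flag-IP, against 191 in IgG-IP, a mean of 0.938 per kilobase of span beside 0.748 for Angptl2 within it. Its log2 fold change was 0.46 ± 0.24 (SE, edgeR adjusted p = 0.200), below the 1.42 of Angptl2; the difference between Ralgps1 and Angptl2 was not tested. Ralgps2 had 85 and 88 raw counts in Flag-IP, against 129 in IgG-IP, a mean of 0.743 per kilobase beside 0.548 for Angptl1. Its log2 fold change was -0.44 ± 0.28 (SE, edgeR adjusted p = 0.332). A230050P20Rik had 8 and 13 raw counts in Flag-IP, against 0 in IgG-IP, and so was high and low in the same libraries as Angptl6. How many counts of Angptl1, Angptl2 and Angptl6 came from the overlapping genes was not tested.

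**Figure D4:**
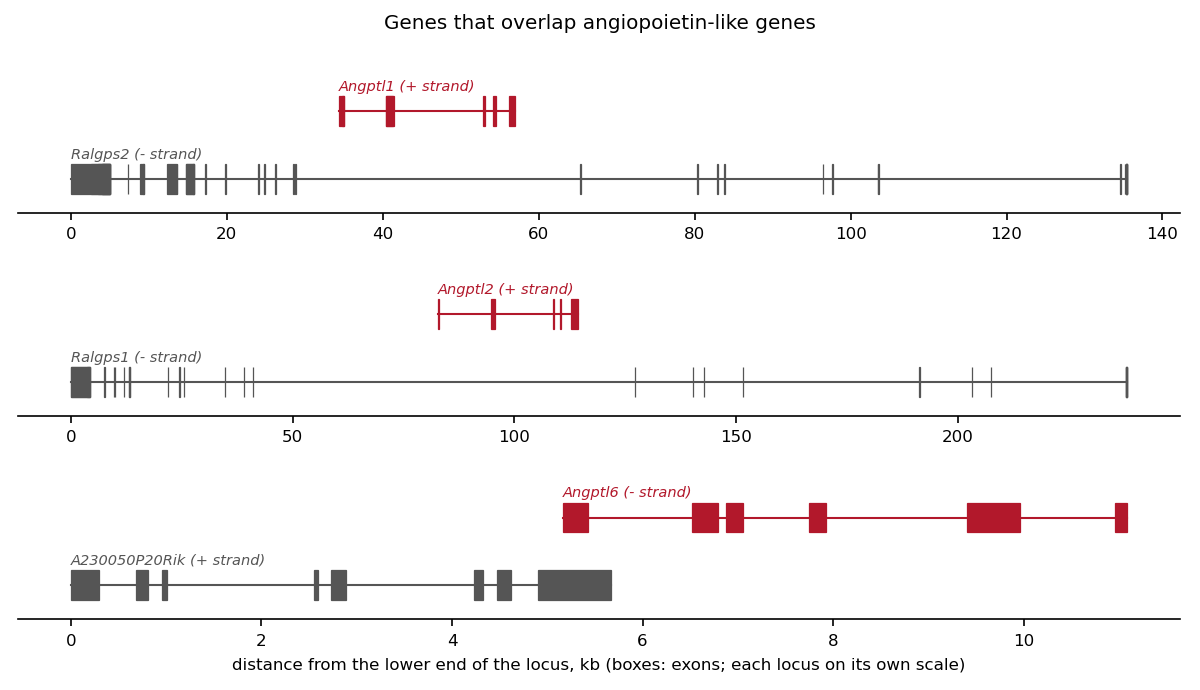
Positions of Angptl1, Angptl2 and Angptl6 (red) and of the genes that overlap them (grey), with exons as boxes and distance in kilobases on the horizontal axis, each locus on its own scale. Angptl1 and Angptl2 each lie between exons of a much longer gene on the other strand, and Angptl6 overlaps its neighbour by 500 bases at 1 end.

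Angptl7, a relative outside the members, had 2 and 9 raw counts in Flag-IP, against 8 in IgG-IP, and did not pass the test (edgeR adjusted p = 0.885). Angptl8, a relative that takes part in the inhibition of the lipase, had 2 and 0 raw counts in Flag-IP, against 2 in IgG-IP, and was too weakly counted to be tested.

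Around the members, a list of 55 genes that handle the lipase, its lipoprotein substrates and its products gave 48 tested genes, of which 5 were higher in Flag-IP, 2 were lower and 41 did not pass. Over all genes tested 5.58% were called higher and 5.77% lower. The median log2 fold change of the list was 0.40, beside 0.03 over all genes. Some list genes passed the filter on low counts through Flag-IP alone, so the list median supports nothing by itself. Among genes for maturation and release of the lipase 2 of 8 rose. Calr, the endoplasmic reticulum chaperone calreticulin, had 29 and 18 raw counts in Flag-IP, against 2 in IgG-IP (log2 fold change 3.61 ± 0.93, SE, edgeR adjusted p = 0.00285). Calr passed the filter on low counts through Flag-IP alone, the group where it is high. Hspg2, which encodes the heparan sulfate proteoglycan perlecan of basement membranes, had 128 and 144, against 79 (0.91 ± 0.28, edgeR adjusted p = 0.0185). Canx, the chaperone calnexin, had 67 and 45, against 50, and did not pass.

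Of 8 receptors for remnants or for the lipase 1 rose. This was Lrp1, the large endocytic receptor that takes up remnant lipoproteins, with 111 and 120 raw counts in Flag-IP, against 53 in IgG-IP (log2 fold change 1.25 ± 0.31, SE, edgeR adjusted p = 0.00211). Sorl1, a sorting receptor that binds the lipase, had 159 and 147, against 118, and did not pass. Among 8 transcriptional regulators 2 rose, Ppard and Rxra, and 6 did not pass. The 2 encode a receptor pair, 1 of those through which fatty acids can induce Angptl4. Ppard had 84 and 102 raw counts in Flag-IP, against 36 in IgG-IP (1.49 ± 0.35, edgeR adjusted p = 0.000879), and its partner Rxra had 81 and 116, against 51 (1.07 ± 0.33, edgeR adjusted p = 0.0157). Pparg, the adipocyte member of that family, had 68 and 117, against 148 in IgG-IP, and did not pass.

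The 2 genes that fell were Cd36 and Itgav. Cd36, the fatty acid transporter that takes up what the lipase frees, had 75 and 72 raw counts in Flag-IP, against 150 in IgG-IP (log2 fold change -0.89 ± 0.28, SE, edgeR adjusted p = 0.0183), and was the 1 gene called among 3 tested uptake genes. Slc27a1, a fatty acid transport protein, had 23 and 41, against 27, and did not pass. Itgav, an integrin subunit among receptors known to bind angiopoietin-like proteins, had 49 and 46, against 103 (-0.98 ± 0.32, edgeR adjusted p = 0.0274), and the other 7 tested genes of that role did not pass, Tek (100 and 107 in Flag-IP, against 145 in IgG-IP) and Cdh11 (77 and 84, against 118) included.

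In the remaining roles no gene passed. None of 4 tested apolipoprotein genes was called, and the highest counts were those of Apob, with 12 and 38 raw counts in Flag-IP, against 40 in IgG-IP, and of Apoc2, the cofactor that the lipase needs, with 16 and 12, against 12. The related lipases Lipc (77 and 126, against 94) and Lipa (21 and 19, against 41) did not pass, nor did Pcsk5 (180 and 262, against 348) and Pcsk6 (150 and 172, against 125) of the proprotein convertases, a family that cleaves lipases and angiopoietin-like proteins. With a trend on GC taken out of each library, Lrp1, Hspg2, Ppard, Rxra, Cd36 and Itgav no longer passed, Calr still did, and Pcsk5 was called lower. Under the likelihood ratio test with a common dispersion Cd36, Hspg2, Itgav and Rxra did not pass, and with total-count scaling Calr was the only one of the higher genes that did. With a trend on gene span taken out Calr did not pass (edgeR adjusted p = 0.0523), nor did Cd36 and Itgav. DESeq2 called 0 genes of the list, but its adjusted p was missing for 15684 of 17587 genes, Lmf1 included. Genes without that value could not be called, so the 0 need not mean that list genes failed a test.

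**Figure D5:**
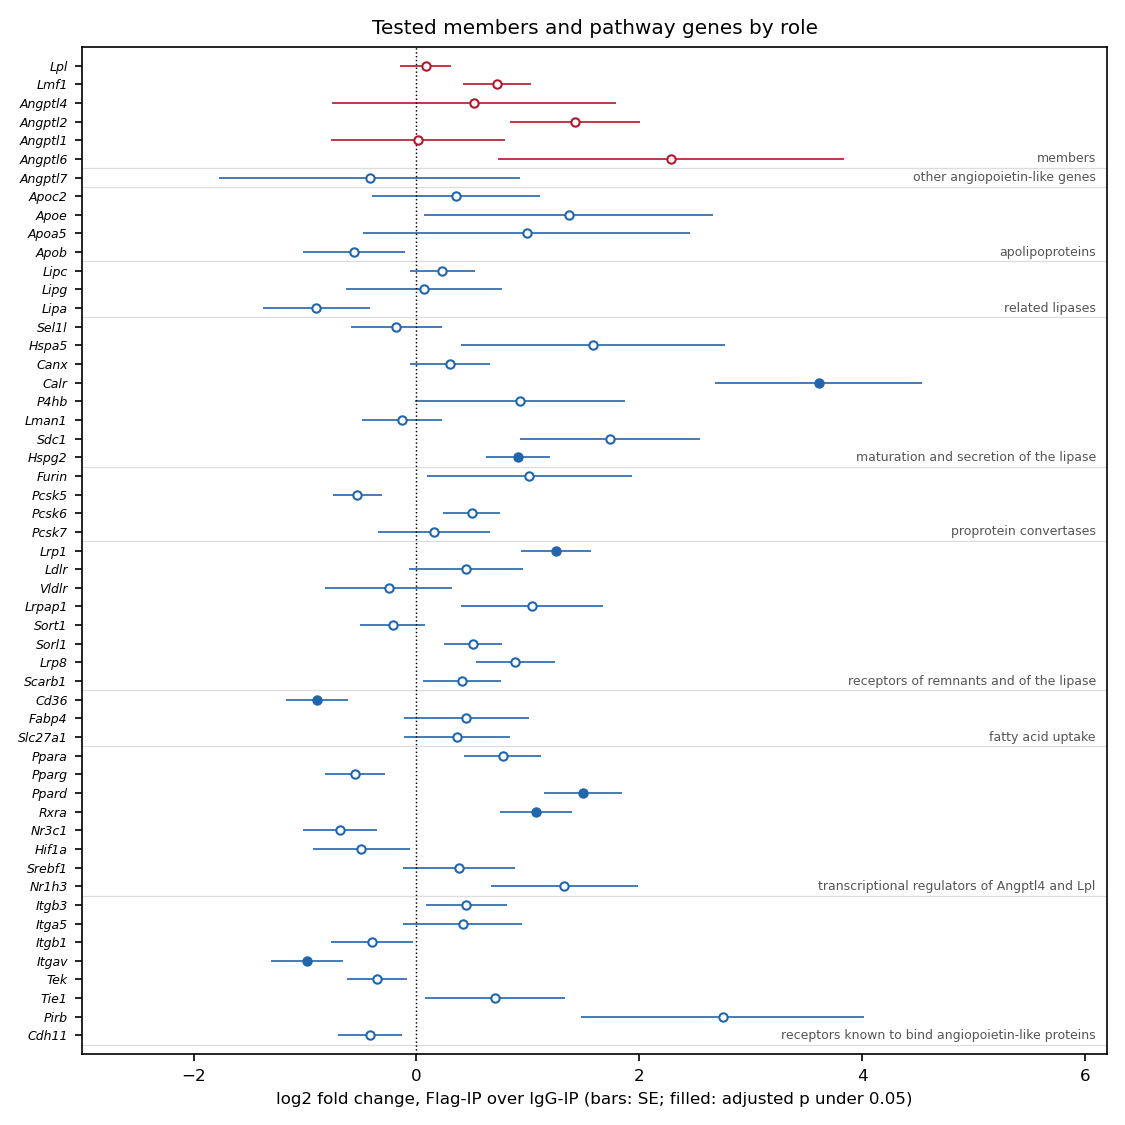
Log2 fold change of Flag-IP over IgG-IP (horizontal axis, bars show the SE) for the 6 tested members (red) and the tested genes of the pathway list (blue), grouped by role, with 1 of the 48 not drawn. Filled points passed at an adjusted p under 0.05: 0 members, 5 list genes to the right of 0 and 2 to the left.

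Genes with a pattern like that of the members were sought over the 2 ratios to IgG-IP, as the Euclidean distance between log2 ratios with 2 added to each normalized count, among 9083 protein-coding genes that averaged 20 counts or more. Closest to Angptl2 were Tnfrsf1b (44 and 46 raw counts in Flag-IP, against 19 in IgG-IP, distance 0.0100), Myo7a (75 and 77, against 33, distance 0.0113) and Scamp5 (34 and 34, against 14, distance 0.0333). Closest to Lmf1 were Wbscr17 (974 and 641, against 549, distance 0.0225), Atp2c2 (72 and 46, against 39, distance 0.0235) and Csnk1e (32 and 21, against 17, distance 0.0253). With 3 libraries such likeness is easily met: 19 genes lay within 0.1 of Angptl2 and 17 within 0.1 of Lmf1.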

How the data were processed

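White fat RNA was sequenced in 3 libraries, and the authors' deposited gene table holds raw counts per Ensembl gene with no normalization. Per the submitters' processing notes, CASAVA 1.7, the aligner Bowtie 0.12.2 and the mm8 build were used. No source used here gives the counting program, annotation or strand setting. The authors' deposited lipid table holds counts and their ratio, with no scaling for depth. Positions, lengths and GC are from GENCODE M21 (GRCm38), matched by identifier for 37693 of 39179 genes; none are in mm8.

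Genes were kept by filterByExpr with a minimum count of 10 (17587 kept). TMM gave factors of 0.840 and 0.936 for the Flag-IP libraries, against 1.27 for IgG-IP. Flag-IP was compared with IgG-IP by edgeR 4.0.16's quasi-likelihood test (R 4.3.3) with Benjamini-Hochberg adjustment over all genes. It has 1 residual degree of freedom, from the Flag-IP libraries, and the prior degrees of freedom were not finite for any gene. The spread of a gene was therefore estimated across genes and not from its own counts. The common dispersion was 0.0359, and the likelihood ratio test used it for every gene. The SE is the log2 fold change divided by the square root of F. Ratios of libraries carry exact 95% intervals and the floor for a count of 0 is 3 counts; both cover counting error only. Alternatives were scaling by RLE, by total counts and by upper quartile, other filters, DESeq2 1.42.0, a likelihood ratio test, prior counts of 0.5, 2 and 10, lowess trends on transcript GC and exonic length, and leaving out each Flag-IP library. A trend on gene span was chosen after seeing the data.

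The members and lists were chosen with earlier results of these data known. Named were the members, overlapping genes, list genes that passed, the 2 most counted genes of each role and the 3 genes nearest to Angptl2 and to Lmf1. Cmss1, Filip1l, Itsn1, Atp5o, Alb, Aqp7, Ckm, Tnnt3, the other single markers named and the receptor families used for comparison were chosen after their values were seen. 1 gene of the pathway list, and the gene that overlaps it, are not reported here.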

Additional observations from a re-analysis of the deposited data

How the results depend on the processing

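No paired analysis was possible because the IgG group has 1 library, so the groups share fewer than 2 replicate numbers. Counts of genes higher and lower in Flag-IP were 981 and 1015, against 342 and 3008 with total-count scaling, 401 and 305 with GC trends removed, 602 and 344 with span trends removed (chosen after seeing the data), and 131 and 145 by DESeq2, which gave no adjusted p for 15684 genes. Total-count scaling moved the median of all genes to -0.48. Members called were 0, apart from 1 higher, Lmf1, with genes of a mean of at least 50 counts (adjusted p = 0.0201) and 1 with exonic length trends removed (adjusted p = 0.0280). The edgeR adjusted p of Lmf1 ran from 0.0201 to 0.978 and that of Angptl2 from 0.0701 to 0.447 over the settings that gave one. DESeq2 gave no adjusted p for either gene. The median of the tested members, 0.62, was 0.11 with total counts, 0.69 with upper quartile, 0.57 with no filter, 0.49 over the 2 left with a mean of at least 50, 0.48, 0.70 and 0.41 with GC, exonic length and span trends removed, 0.56 and 0.43 with prior counts of 2 and 10, and 0.69 to 0.73 without Flag-IP replicate 1 or 2. Angptl1, at 0.01, turned to -0.50 with total counts, -0.042 with no filter, -0.023 with exonic length and -0.32 with span trends removed. Lpl turned to -0.45 with total counts and -0.15 with span trends removed, and Angptl4 to -0.026 with span trends removed. Without Flag-IP 1 or Flag-IP 2 there is no residual spread and so no test: Lpl was then at -0.35 and 0.41, and Angptl4 at 1.06 and -0.38. Pathway genes called higher and lower, 5 and 2, were 1 and 8 with total counts and 1 and 1 with GC trends removed. They were 0 and 0 by DESeq2, where a gene whose adjusted p was missing could not be called. Those called lower were 0 with the likelihood ratio test and with span trends removed, and 1 with exonic length trends removed. The cause of these changes was not tested. Depth limits the weakly counted members: 1.67% of genes near the count of Angptl4 were called, against 19.9% near that of Lmf1.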
